A study of Mus musculus with 6 samples.

Results

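The Wnt ligands, their receptors, their secreted inhibitors and the proteins that relay or answer the signal were examined in RNA-Seq data of mouse embryonic fibroblasts (MEFs), the mesenchymal cells that grow out when an embryo is put into culture. Members were chosen by gene name and not by their values, though earlier results of these data were known. Of the 25043 genes in the deposited table, 65 were members. They comprised 19 Wnt ligands, 10 Frizzled receptors, 5 other receptors and co-receptors, 12 secreted inhibitors, 9 genes of the R-spondin axis and 10 intracellular components. Where a gene had several listed transcripts, the transcript with the highest mean stood for it.

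The series holds 3 WT and 3 Anp32e null (Anp32e-/-) libraries of primary MEFs at passage numbers below 8, grown without a further treatment. The null cells carry a germline deletion of Anp32e, which encodes a histone chaperone that removes the variant H2A.Z from chromatin, so the loss was present throughout development and not only in culture. Total RNA was made into libraries with a strand-preserving kit. The means used here were taken over all 6 libraries, WT and null together, and the values per library given below were rebuilt from those means without being tied to a genotype. No comparison between WT and Anp32e-/- MEFs was therefore made, and n refers to 6 libraries of mixed genotype throughout. Anp32e itself had a mean of 2190 normalised counts over the 6 libraries, and it was not used to label any of them.

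Wnt ligands are secreted lipid-modified glycoproteins that bind Frizzled receptors. With the co-receptors Lrp5 or Lrp6 they stop the destruction of beta-catenin, which then enters the nucleus and acts with Tcf and Lef factors, whereas with Ror or Ryk receptors they steer cell polarity and migration without beta-catenin. R-spondins and their Lgr receptors raise the amount of Frizzled at the cell surface by removing the ubiquitin ligases Znrf3 and Rnf43, and the Sfrp, Dkk, Wif1 and Notum proteins hold the signal down outside the cell.

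Levels are mean normalised counts, that is, reads on a transcript divided by the size factor that scales each library, averaged over the 6 libraries. The size factors ranged from 0.909 to 1.13, so the libraries differed little in depth as far as these factors show it. Of the 65 members, 49 had a mean of at least 10 normalised counts, which is 75.4%, beside 56.9% of all listed genes. There were 36 members with at least 100. To compare genes with each other, means were divided by the length of the transcript in kilobases. Means alone carry no error, so differences in level between members with a mean of 100 or more are given as descriptions.

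The labelled cell type was examined through markers. Of 10 fibroblast markers, 9 had a mean of at least 10, led by Vim with 330695 normalised counts, Fn1 with 86443 and Col1a1 with 26142, while Lum, a proteoglycan of fibroblast matrix, had 1.33. All 6 mesothelial markers were also present, from 109 for Lrrn4 to 7400 for Krt19. Of 6 epithelial markers 4 had a mean of at least 10, of 5 endothelial markers 2, of 5 macrophage markers 3, and of the 5 markers each of skeletal muscle and of neural crest and glia 1. The endothelial gene Kdr had 2958, but the defining genes Pecam1, Cdh5 and Emcn had 4.47, 3.54 and 0. Myod1 and Myf5 of skeletal muscle and Foxd3 of neural crest were listed at 0, while Des of muscle had 59.6 and the glial gene S100b 26.6. The macrophage genes Adgre1 and Ptprc had 0.178 and 3.09, but Cd68, Cd14 and Csf1r had 257, 233 and 40.1. Of the epithelial markers, Krt18 had 1106, Cdh1 67.1, Krt8 26.7 and Cldn4 12.4, while Epcam and Krt5 had 5.12 and 1.17. In bulk RNA, fewer cells of a type and less RNA per cell cannot be told apart. The part that any other cell type plays in the levels below was not tested.

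Among the ligands, the highest level in these MEFs was that of Wnt5a, a ligand best known for signalling without beta-catenin in limb and craniofacial mesenchyme. Its gene spans 28504543 to 28527448 of chromosome 14 (GRCm38, plus strand), and it had a mean of 1714 normalised counts. Its level per kilobase was 244, and it made up 40.8% of the summed level per kilobase of all 19 ligands. Next came Wnt9a, which acts in joint formation, at 62.1 per kilobase, and Wnt11, a ligand of convergent extension, at 54.4. Wnt10b and Wnt7a followed at 51.0 and 49.3 per kilobase. These 5 ligands were the only ones with a mean of at least 100 normalised counts, and 11 of the 19 reached 10.

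The next 6 ligands had means between 24.1 and 79.2 normalised counts. Per kilobase, Wnt16 stood at 42.2, Wnt5b at 33.4, Wnt10a at 25.5, Wnt2 at 17.7, Wnt2b at 7.25 and Wnt4 at 6.33. The remaining 8 ligands had means under 10. Wnt6 had 27 reads over the 6 libraries, Wnt7b 21, Wnt8b 9, Wnt8a 8, Wnt3 7, Wnt1 5 and Wnt9b 1. Wnt3a, a ligand widely used to switch on beta-catenin signalling in culture, had no reads, which allows a mean of up to 0.499 normalised counts from 3 reads over the 6 libraries. Wnt1, Wnt3, Wnt3a and Wnt8a, which classically act through beta-catenin in the early embryo and neural tube, were thus among the lowest. The other ligands were not sorted by whether they act through beta-catenin. The limit given for Wnt3a covers counting error only.

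Several Wnt genes lie beside each other in the mouse genome, and neighbours had unlike levels. Wnt10a and Wnt6 on chromosome 1 are 6.70 kb apart by the RefSeq annotation of GRCm38, and their levels per kilobase were 25.5 and 2.24. Wnt9a and Wnt3a on chromosome 11 are 16.1 kb apart, with 62.1 per kilobase for Wnt9a and 0 for Wnt3a. Wnt10b and Wnt1 on chromosome 15 are 11.7 kb apart, and Wnt10b had 51.0 per kilobase beside 0.333 for Wnt1. In each of these 3 pairs 1 gene had most of the transcripts. The fourth pair, Wnt3 and Wnt9b on chromosome 11, was low for both genes, at 0.374 and 0.0374 per kilobase.

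**Figure D1:**
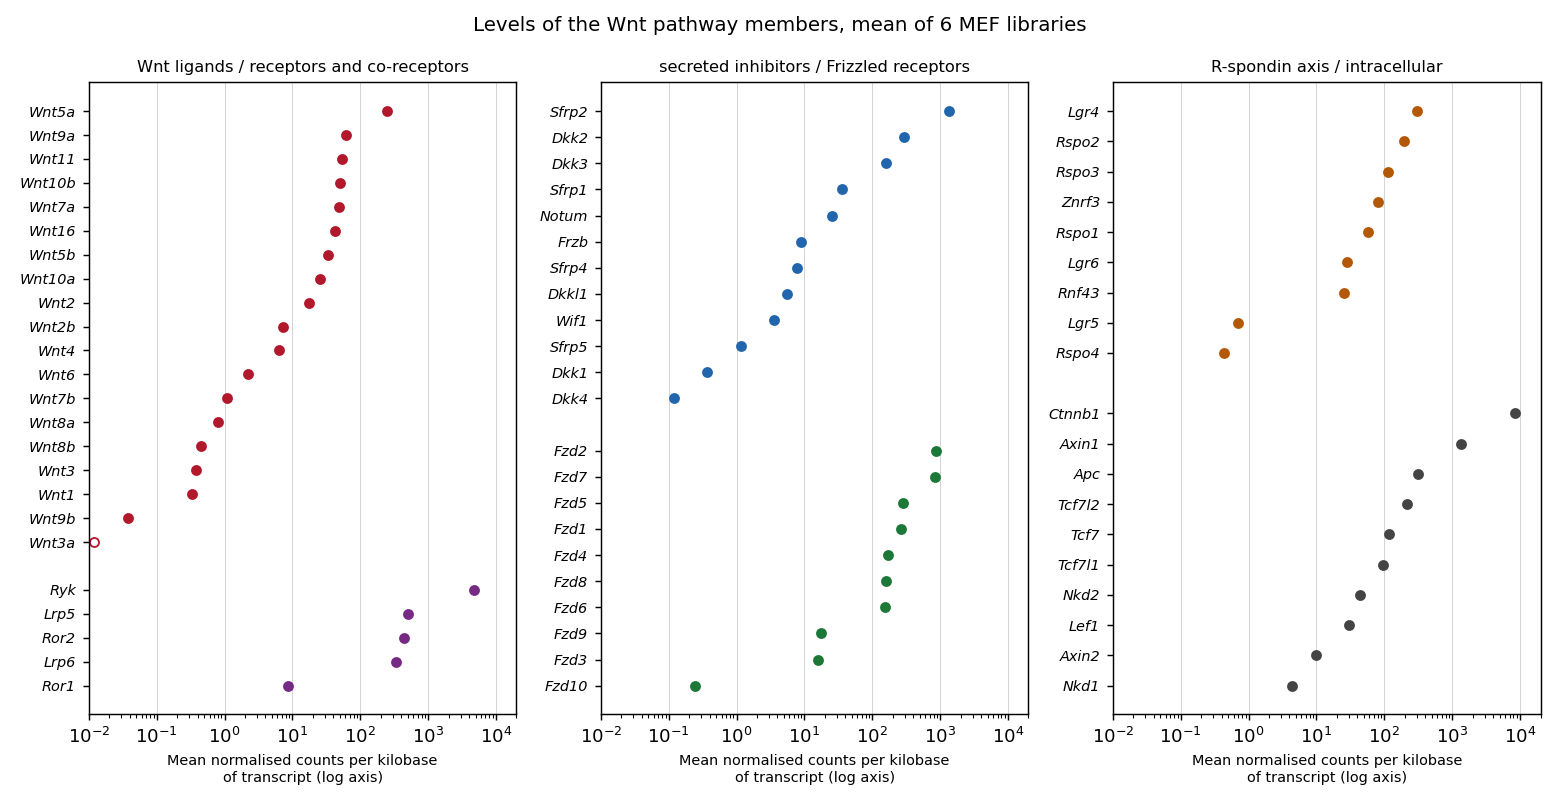
Level of each of the 65 members as mean normalised counts per kilobase of transcript over 6 MEF libraries (horizontal, log axis), by role and in falling order within it, 1 filled point per gene. Wnt3a had no reads and is drawn as an open circle at the left edge. Wnt5a stands apart from the other ligands at 244, while 7 of the 10 Frizzled receptors lie above 100.

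Of the 10 Frizzled genes, 9 had a mean of at least 10 and 8 had at least 100. Fzd2 and Fzd7, 2 closely related receptors encoded by single exons, led with 865 and 833 per kilobase and together made up 61.5% of the summed Frizzled level. Fzd2 lies on chromosome 11 from 102604431 to 102608058, and Fzd7 on chromosome 1 from 59482147 to 59486955, both on the plus strand. Fzd5 at 288, Fzd1 at 266, Fzd4 at 167, Fzd8 at 157 and Fzd6 at 152 per kilobase formed a middle range. Fzd9 and Fzd3 were lower at 17.5 and 15.9 per kilobase, and Fzd10 had 5 reads in all.

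Ryk, a receptor with an inactive kinase domain that binds Wnt through a Wif domain, was the highest of the other receptors. Its mean of 13296 normalised counts exceeded that of 96.7% of the genes with reads, and its level per kilobase was 4662. The beta-catenin co-receptors were both present, with Lrp5 at 497 and Lrp6 at 337 per kilobase. The pair of Ror kinases, receptors for Wnt5a, was unequal in level, since Ror2 had 440 per kilobase and Ror1 8.63.

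Secreted inhibitors were dominated by Sfrp2, a soluble protein with a Frizzled-like domain that binds Wnt ligands. Its mean was 2741 normalised counts, its level 1368 per kilobase, and its share of the summed inhibitor level 71.6%. Sfrp2 lies on chromosome 3 from 83765750 to 83774314 on the plus strand. Dkk2, which binds Lrp5 and Lrp6, followed at 295 per kilobase, and Dkk3, a divergent Dickkopf protein, at 159. Sfrp1 had 35.7, Notum, an enzyme that removes the lipid from Wnt ligands, 25.8, Frzb 8.76 and Sfrp4 7.68 per kilobase. Of the 12 inhibitors, 5 had means under 10. Wif1 had 50 reads over the 6 libraries, Dkkl1 39, Sfrp5 13, Dkk1 6 and Dkk4 1. Dkk1, the founding Dickkopf inhibitor and itself a beta-catenin target in many tissues, was thus close to absent, with 5 of its 6 reads in 1 library.

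In the R-spondin axis the receptor Lgr4 led at 306 per kilobase, with a mean of 1547 normalised counts. The receptor Lgr6 had 27.8 per kilobase, and Lgr5, known as a stem cell marker of the gut, had 20 reads over the 6 libraries. Of the ligands, Rspo2 had 195, Rspo3 114 and Rspo1 57.3 per kilobase, and Rspo4 had 6 reads. The ubiquitin ligase Znrf3 stood at 81.6 and its relative Rnf43 at 25.5 per kilobase. All 3 kinds of component, ligand, receptor and ligase, therefore had at least 1 member with a mean over 100 normalised counts.

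Within the cell, Ctnnb1, which encodes beta-catenin, had a mean of 29999 normalised counts, more than 99.0% of the genes with reads, and 8280 per kilobase. It lies on chromosome 9 from 120933400 to 120960507 on the plus strand. Beta-catenin also serves in cell adhesion, so its transcript level is no measure of Wnt activity. Of the destruction complex, Axin1 had 1338 and Apc 318 per kilobase. Tcf7l2 was the highest of the 4 DNA-binding partners at 212 per kilobase, followed by Tcf7 at 118, Tcf7l1 at 95.1 and Lef1 at 30.6. Of the feedback inhibitors that beta-catenin switches on in many tissues, Nkd2 had 43.4, Axin2 9.78 and Nkd1 4.30 per kilobase.

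Of 66 other genes of the pathway, 59 had a mean of at least 10 normalised counts. Both genes for secretion of Wnt ligands did, with Wls, the carrier that takes them to the cell surface, at 6886 and Porcn, which adds the lipid, at 261. All 32 genes of signal transduction and all 10 of planar cell polarity had a mean of at least 10, and so did 9 of 12 extracellular modulators. Of 10 common target genes 6 did, beside 56.9% of all listed genes. The 6 included Ccnd1 at 24893 and Myc at 6278 normalised counts, which many other signals also control. The others were Ccnd2 at 12250, Lbh at 5820, Twist1 at 1958 and Bmp4 at 846. The targets under 10 were Tnfrsf19 at 4.25, Sp5 at 1.76, T at 0.356 and Cdx1 at 0.306.

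Below a mean of 100 normalised counts, the listed mean fixed the whole number of reads in each library. A single set of 6 read counts fitted the mean for each of the 29 such members, 13 of which had a mean of at least 10. The libraries are numbered 1 to 6 by falling size factor, and this number stands for no genotype or replicate. Spread between libraries is given by the index of dispersion, the variance of the reads around their expected values divided by the expectation, which is 1 when counting error is the only source. Across the 2655 genes with a mean of 10 to 100 and a single set of counts, the median index was 3.81 and 1 in 10 genes exceeded 15.01. Of the 13 members, 11 were over that median and 3 over 15.01. Since the 6 libraries are of 2 genotypes, the index mixes differences between genotypes with those between samples.

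Axin2, a scaffold of the destruction complex whose gene is one of the most general targets of beta-catenin, had 16.8 normalised counts in library 1, 12.4 in library 2, 78.8 in library 3, 14.2 in library 4, 67.3 in library 5 and 60.5 in library 6. Libraries 1, 2 and 4 were low and libraries 3, 5 and 6 high, with no value in between. The highest was 6.38 times the lowest, and the index of dispersion of 23.2 exceeded that of 95.5% of genes in this range. Cdh1, the epithelial cadherin, had 9, 4, 152, 6, 105 and 113 reads in libraries 1 to 6, high in the same libraries as Axin2. Of the other epithelial markers with values per library, Krt8 had 10, 26, 30, 33, 38 and 21 reads and Cldn4 10, 20, 12, 16, 1 and 16. Epcam had 1, 7, 4, 0, 17 and 1 reads, and Krt5 had at most 3 in any library. None of these split the libraries as Cdh1 did. The macrophage marker Csf1r, with 25, 31, 51, 26, 53 and 51 reads, was also higher in libraries 3, 5 and 6. The macrophage gene Ptprc was not, with 4, 6, 0, 6, 3 and 0 reads, and Adgre1 had 1 read in all. The glial marker S100b ran the other way from Axin2, with 37, 30, 26, 41, 19 and 10 reads. Mesothelial markers all had means over 100 and so no values per library. The part of other cell types in the values of Axin2, and of the members below that split the libraries alike, was not tested.

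Wnt10a, a ligand of skin, hair and tooth development, had 24.8, 25.7, 71.1, 30.4, 111 and 114 normalised counts in libraries 1 to 6. Its index of dispersion, 29.0, was the highest of the 13 members, and the highest library was 4.62 times the lowest. Its neighbour Wnt6 had 2, 5, 2, 1, 11 and 6 reads in the same order, too few to rank the libraries.

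Sfrp4, a secreted inhibitor of mesenchyme, had 0.884, 0, 25.3, 2.03, 27.8 and 25.3 normalised counts in libraries 1 to 6. Libraries 1, 2 and 4 held 1, 0 and 2 reads, against 26, 26 and 23 in libraries 3, 5 and 6. Since the low libraries are at or under 3 reads, no fold is given.

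Frzb, another soluble Frizzled-like inhibitor, had 38.0, 39.0, 12.7, 45.6, 14.96 and 15.4 normalised counts in libraries 1 to 6. Here libraries 1, 2 and 4 were the high ones, and the highest was 3.60 times the lowest. Wnt16, a ligand of bone and joint, had 102, 96.1, 45.8, 93.2, 39.5 and 45.1 normalised counts in the same order, with a highest value 2.57 times the lowest. Notum had 74.3, 58.0, 38.0, 64.8, 41.7 and 34.1, a range of 2.18 times. In all 3 genes the libraries 1, 2 and 4 lay above the libraries 3, 5 and 6.

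Ror1 had 69.0, 46.6, 21.4, 96.2, 26.7 and 38.5 normalised counts in libraries 1 to 6. Its highest library was 4.49 times its lowest, and its index of dispersion was 15.9. Libraries 4 and 1 were the highest, and the values formed a graded series. Within it, libraries 1, 2 and 4 all lay above libraries 3, 5 and 6. Another listed Ror1 transcript, with a mean of 7.93, held 12, 15, 2, 12, 6 and 2 reads in libraries 1 to 6.

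Lef1 and Rnf43 had means just over 100 on their longest listed transcripts, where the reads per library are not fixed, but each has a shorter listed transcript below that limit. The shorter Lef1 transcript held 122, 108, 49, 119, 46 and 33 reads in libraries 1 to 6. The shorter Rnf43 transcript held 133, 121, 46, 94, 72 and 57 reads. On both, libraries 1, 2 and 4 were above the other three. Several transcripts of 1 gene have identical means in the table, so reads were evidently counted on each transcript they overlap, and these values share most of their reads with the longer transcripts.

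**Figure D2:**
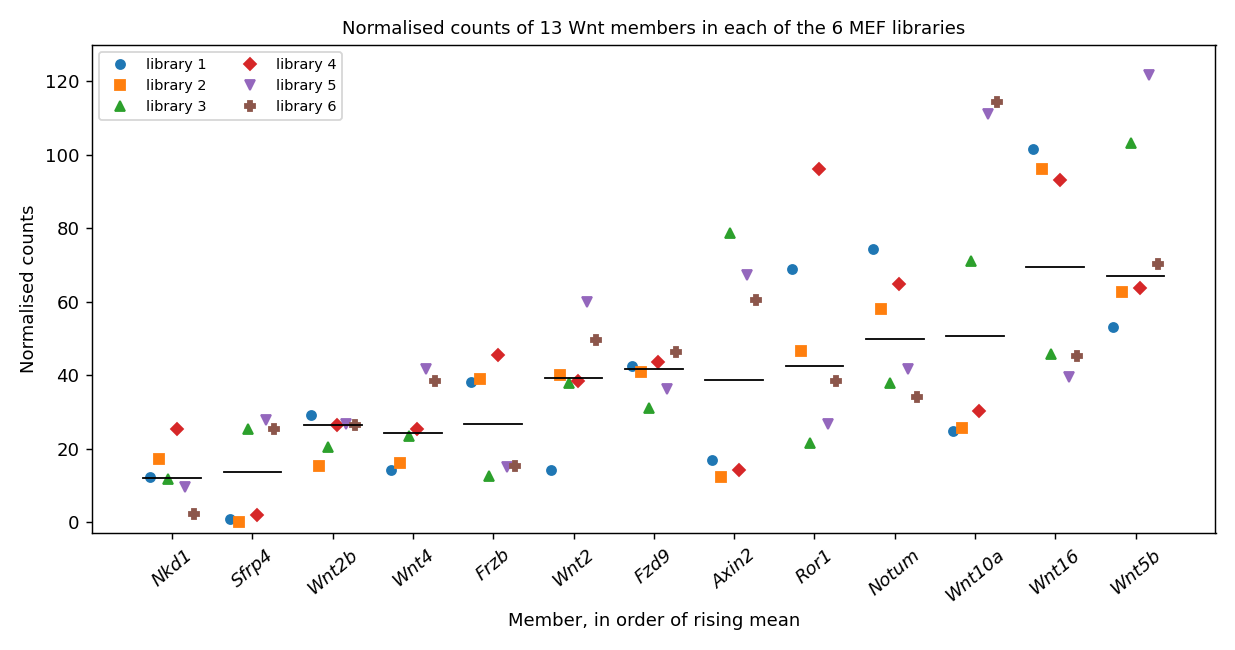
Normalised counts (vertical) of the 13 members with a mean of 10 to 100 in each of the 6 MEF libraries, in order of rising mean, with 1 symbol per library and a black line at the median. Libraries 1, 2 and 4 lie together below the others for Axin2, Wnt10a and Sfrp4 and above them for Frzb, Wnt16 and Notum, while Fzd9 varies from 31.2 to 46.2. By narrower gaps, libraries 1, 2 and 4 also lie above the others for Ror1 and Nkd1 and below them for Wnt5b. The share of all genes in this range with this split was not counted.

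Wnt5b, a relative of Wnt5a, had 53.1, 62.8, 103, 63.8, 122 and 70.4 normalised counts in libraries 1 to 6, a range of 2.30 times, with libraries 3 and 5 the highest. Library 6 was also above libraries 1, 2 and 4. Wnt4, a ligand of kidney and gonad development, had 14.1, 16.2, 23.4, 25.3, 41.7 and 38.5, so libraries 5 and 6 were the highest. Wnt2, a ligand of lung and heart mesenchyme, had 14.1, 39.9, 38.0, 38.5, 59.9 and 49.5, and library 1 was apart at the low end.

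The remaining 3 members had the lowest indices of dispersion of the members in this range. Wnt2b had 29.2, 15.2, 20.4, 26.3, 26.7 and 26.4 normalised counts in libraries 1 to 6, with an index of dispersion of 1.18. Fzd9 had 42.4, 40.9, 31.2, 43.6, 36.3 and 46.2 normalised counts, and its index of 0.740 is no more than counting error gives. Nkd1, an inhibitor that binds Dishevelled, had 14, 18, 12, 25, 9 and 2 reads, with library 6 the lowest, and an index of 4.33. In normalised counts its libraries 1, 2 and 4 lay above libraries 3, 5 and 6, narrowly for library 1 at 12.4 beside library 3 at 11.7. Axin2, named above with Nkd1 among the feedback inhibitors, had these libraries the other way round. Wnt activity in the libraries was not tested.

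**Figure D3:**
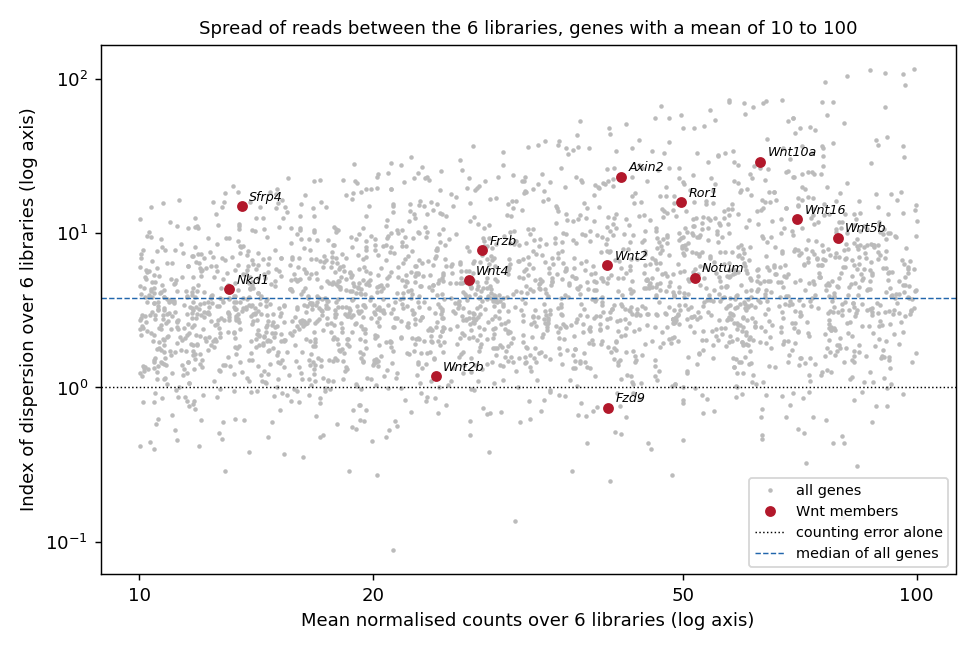
Index of dispersion of the reads over the 6 MEF libraries (vertical, log axis) against the mean normalised count (horizontal, log axis) for 2655 genes with a mean of 10 to 100 (grey) and 13 Wnt members (red). The dotted line is at 1, the value under counting error alone, and the dashed line at the median of all genes, 3.81; Wnt2b and Fzd9 are the members below that median.

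The 16 members under a mean of 10 were read from few fragments. Wnt7b had 1, 5, 1, 1, 4 and 9 reads in libraries 1 to 6, and Lgr5 had 4, 6, 0, 7, 0 and 3. Wif1, a secreted inhibitor that binds Wnt ligands directly, had 9, 10, 17, 5, 5 and 4, and Dkkl1 had 6, 9, 8, 8, 4 and 4. Sfrp5 had 0, 2, 5, 1, 0 and 5 reads, Wnt8b 1, 0, 2, 0, 6 and 0, and Wnt8a 0, 0, 2, 0, 4 and 2. The 5 reads of Wnt1 all came from library 2. No order of the libraries was read from these counts. Wif1 and Dkkl1 had at least 4 reads in every library, and the others were at or near the floor in most libraries.

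Exons of 12 members overlap those of another gene in the GENCODE annotation, on the opposite strand save for 1 microRNA within Ctnnb1. Notum shares 29.4% of its exon bases with Notumos and 8.72% with Myadml2os, Fzd5 17.8% with Gm38058, Sfrp2 16.1% with Gm26771, Ctnnb1 14.6% with Ulk4, Lef1 13.7% with Gm43352 and Rspo3 13.1% with Gm48159. The strand setting of the counting is not given in the sources used here, so reads of these partners may be part of the members' values. Of the rest, Wnt11 shares the most, 8.80% with Gm8398.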

How the data were processed

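RNA-Seq libraries of 3 WT and 3 Anp32e null MEF samples were examined. The authors aligned reads to mm10 with STAR, counted them per RefSeq transcript with Subread featureCounts and ran DESeq2. The deposited table has 1 line for each of 42361 transcripts. Its signal column gives an average over all 6 libraries, made by the authors from read counts scaled with size factors. Its other 5 value columns hold the authors' comparison of the genotypes (fold change, standard error, statistic and p-values) and were not used. The planned model of WT against null could not be fitted, since no value used here is tied to a sample.

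RefSeq annotation of GRCm38.p6 gave symbols for 42203 transcripts and left 158 without one. Transcript lengths came from GENCODE M21. For Rspo2 the length and mean of its next transcript were used. Whole reads per library were rebuilt from the listed means (15 significant digits). The 6 smallest steps, each worth 1 read in 1 library, were refined on 1240 means and gave the size factors. All sets of whole reads matching a mean under 100 within 1.3 rounding errors of the mean were then searched, and a set was kept where it was the only match (97.4% of 2725 genes with a mean of 10 to 100). The search was tested on simulated data. Total reads per library are unknown. Replicates are samples so labelled, and whether they came from separate embryos is not given in the sources used here.

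Members and lists were chosen with earlier results of these data known. All members are named, with the 3 highest per kilobase of each role in full. Transcripts of chromosomes X and Y stayed in. Python 3.11.15 with numpy 2.4.6, pandas 2.3.3, numba 0.67.0 and matplotlib 3.10.9 was used.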

Additional observations from a re-analysis of the deposited data

How the results depend on the processing

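With the mean over all listed transcripts, each per its own length, Wnt5a held 47.5% of the summed ligand level per kilobase and Ctnnb1 79.96% of the intracellular level, in place of 40.8% and 79.2%. With the length of all exons of each gene, chosen after seeing the data, the shares were 42.5% for Wnt5a, 61.8% for Fzd2 and Fzd7, 70.5% for Sfrp2 and 75.5% for Ctnnb1. The same genes led their roles in each case, but some lower ranks changed. Over all listed transcripts, Wnt11 at 75.8 per kilobase passed Wnt9a at 62.1, and Tcf7l1 at 124 passed Tcf7 at 99.4. With the length of all exons, Ror2 at 413 passed Lrp5 at 263, and Wnt16 fell from 42.2 to 16.1. A minimum mean of 5 or of 20 left 51 or 47 members in place of 49, and doubling the tolerance of the search left all 29 members with 1 set of reads. The other settings meant for WT against null (pseudocount, filter, centring, trend, fold limit, sex chromosomes, left-out libraries, next transcript) were not run, as no value was tied to a genotype. No paired analysis was possible because the values carry no replicate numbers. Depth limits the 16 members under a mean of 10, and for the 36 members over 100 no spread between libraries could be given, save on a shorter transcript of Lef1 and of Rnf43.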

Other observations

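The samples behind the 6 values per library were not identified, so the values are given as they stand and were neither averaged nor tested. The widest gap between neighbouring values, on the log2 scale of normalised counts with 1 added, set libraries 1, 2 and 4 apart from libraries 3, 5 and 6 in 6 of the 13 members with a mean of 10 to 100. These were Sfrp4 (gap 3.12), Axin2 (1.79), Frzb (1.25), Wnt10a (1.20), Wnt16 (1.01) and Notum (0.47). In Sfrp4, Axin2 and Wnt10a libraries 1, 2 and 4 were the low ones, and in Frzb, Wnt16 and Notum the high ones. The share of all genes in this range with this split was not counted, so the split is not read as a trait of the members. In the other 7 members the widest gap fell elsewhere: it set library 6 apart for Nkd1, library 1 for Wnt2, library 2 for Wnt2b, library 3 for Fzd9, libraries 5 and 6 for Wnt4, libraries 1 and 4 for Ror1 and libraries 3 and 5 for Wnt5b. Among these, libraries 1, 2 and 4 still all lay above libraries 3, 5 and 6 in Ror1 and Nkd1, and below them in Wnt5b.

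Among the other pathway genes with a mean under 100, Dact1, an antagonist of Dishevelled, had 109, 110, 32, 113, 38 and 36 reads in libraries 1 to 6, and Pygo1, a nuclear partner of beta-catenin, had 112, 120, 82, 108, 50 and 54. Celsr2, a polarity cadherin, had 50, 29, 22, 44, 34 and 15, and Sost, a secreted inhibitor of bone, had 20, 15, 5, 15, 3 and 2. These genes were chosen after their values were seen.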
